A study of Mus musculus with 12 samples.

Results

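The Slc25 genes encode the mitochondrial carriers, and were taken here as every gene of the count table whose symbol begins with Slc25a followed by a number. There were 47 of them among 27179 genes. That rule leaves out members of the same family under other symbols, among them the uncoupling proteins Ucp1, Ucp2 and Ucp3. Those, and the outer membrane homologues Mtch1 and Mtch2, are counted below with other genes of mitochondrial transport. Carriers of this family sit mostly in the inner mitochondrial membrane and exchange nucleotides, phosphate, carboxylates, amino acids, cofactors and metal ions between the cytosol and the matrix. ADP/ATP exchange and phosphate import feed ATP synthesis, the citrate carrier exports citrate for fatty acid synthesis in fat cells, and the carnitine-acylcarnitine carrier brings fatty acids in for oxidation. The ATP-Mg/phosphate carriers move adenine nucleotides in and out in exchange for phosphate, and most of them are opened by cytosolic calcium.

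RNA was sequenced from epididymal white adipose tissue (eWAT), the fat pad beside the epididymis, of male C57BL/6J mice kept on chow. One group of 6 mice received sodium epinephrine, the catecholamine hormone of the adrenal medulla, intraperitoneally at 0.5 mg/kg, and a group of 6 received saline (vehicle). Tissue was taken 1 h after the injection in both groups. The listed ages were 18 to 23 weeks with epinephrine and 12 to 17 weeks with vehicle, each group rising by 1 week per mouse, so that listed age and treatment cannot be told apart. Listed age also runs on without a gap or repeat over the 12 samples in label order, as a numbering would, and whether these are the true ages could not be checked, so values adjusted for listed age are read only as values adjusted for that order. The samples are whole tissue, in which fewer cells of a type and less RNA per cell cannot be told apart.

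Total counts per library were between 24821601 and 34405433, and the Slc25 genes took 0.269 to 0.338% of them with epinephrine and 0.244 to 0.307% with vehicle. The 10 adipocyte markers summed to between 16778 and 38007 CPM (library counts scaled to the same total, after TMM scaling) with epinephrine, and to between 12773 and 40476 CPM with vehicle, and no marker of any cell type list was at 0 in all libraries. Gpx5, a secreted protein of the epididymis, took 1.09% and 0.930% of counts in epinephrine libraries 1 and 2 and 1.99% in vehicle library 2, against at most 0.398% in the other 9. The same 3 libraries had the lowest adipocyte marker sums, at 16778 and 24195 CPM in epinephrine 1 and 2 and 12773 CPM in vehicle 2.

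Of the 47 Slc25 genes, 43 had enough counts to be tested. Slc25a25 and Slc25a33 rose with epinephrine, Slc25a45 fell, and 40 did not pass an adjusted p of 0.05 (edgeR's quasi-likelihood test, Benjamini-Hochberg adjustment over 16175 genes). Among all genes tested, 2.65% rose, 3.58% fell and 6.23% did either, so the 3 of 43 carriers that passed, or 6.98%, lie near the share in the whole transcriptome. The groups did not overlap in CPM for the same 3 genes and for no other tested member, while 4.79% of all genes tested had groups that did not overlap, 2.04% with epinephrine higher and 2.74% with it lower. The median log2 fold change was 0.04 over the 43 members and -0.00 over all genes tested, and the median size without its sign was 0.15 for both. At an unadjusted p below 0.05, 8 members passed, or 18.6%, against 17.2% of all genes.

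**Figure D1:**
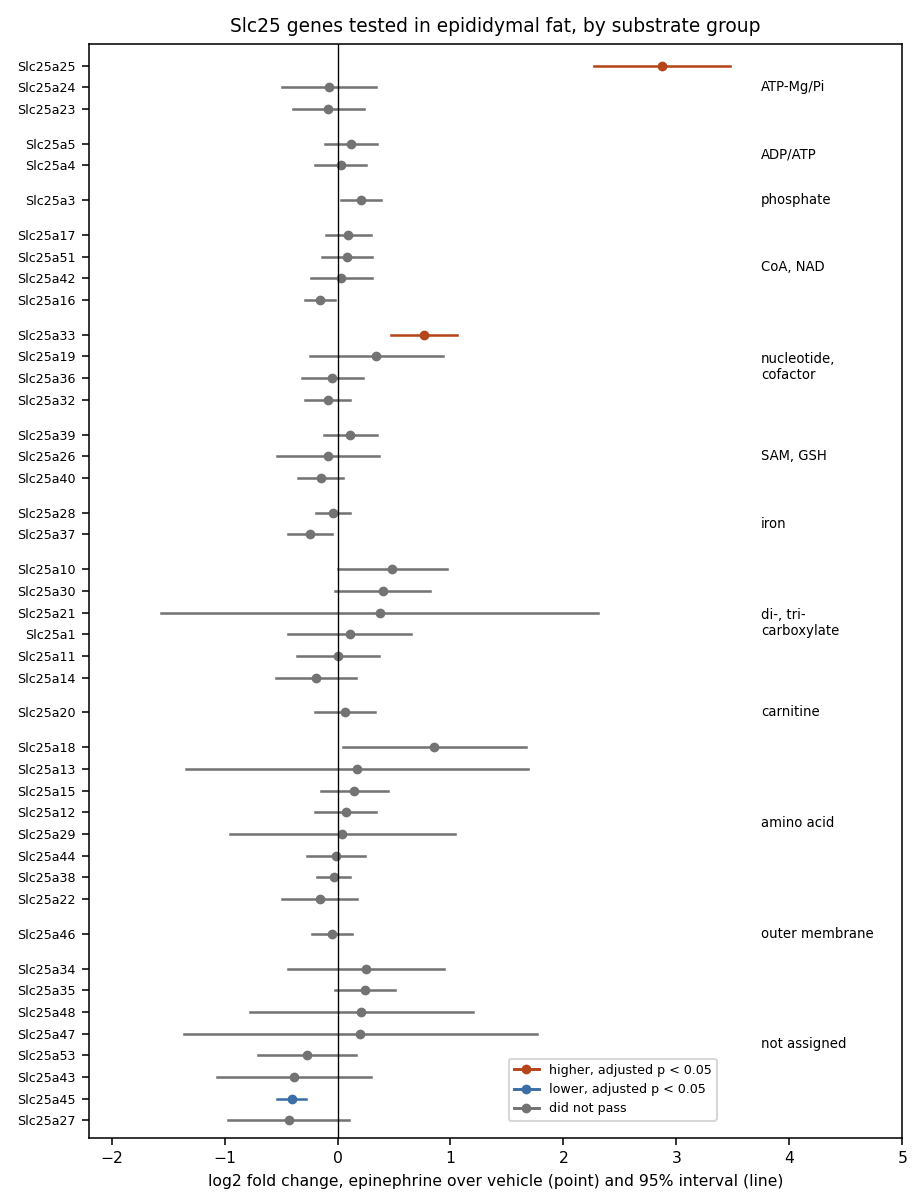
Log2 fold change (epinephrine over vehicle) of the 43 tested Slc25 genes, arranged by substrate group, with 95% intervals derived from the edgeR fit (6 libraries per group). The point of Slc25a25, at 2.87, stands apart from that of every other member. Its interval, 2.27 to 3.48, still overlaps the wide interval of Slc25a21, -1.56 to 2.31. The intervals of the 40 members that did not pass are centred between -0.43 and 0.86.

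Slc25a25 encodes the calcium-regulated ATP-Mg/phosphate carrier also called SCaMC-2. Its gene (Entrez 227731) spans chr2:32414487-32451470 on GRCm38. It stood at 287, 318, 556, 545, 707 and 623 CPM in epinephrine libraries 1 to 6. In vehicle libraries 1 to 6 it stood at 55.5, 40.8, 69.0, 75.0, 77.7 and 96.0 CPM. The lowest epinephrine library was thus well above the highest vehicle library. The means were 506 ± 168 CPM with epinephrine and 69.0 ± 19.1 CPM with vehicle (SD, n = 6 each). The log2 fold change was 2.87 (SE 0.28, 95% interval 2.27 to 3.48), a 7.33-fold rise, with an adjusted p of 0.000139 in edgeR. By that fold it was number 25 among the 428 genes that rose, of which 199 rose at least 2-fold.

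The 3 libraries with the most Gpx5 were the lowest for Slc25a25 within their own groups, at 287 and 318 CPM with epinephrine and 40.8 CPM with vehicle. Without those 3 libraries the log2 fold change was 3.03. With listed age as a covariate it was 1.52, a 2.86-fold rise, with an adjusted edgeR p of 0.00715. In libraries numbered 1 to 3 alone it was 2.83 with an adjusted p of 0.180, in a fit where 0 of 16709 genes passed and 1356 had an unadjusted p below 0.05. That subset of libraries 1 to 3 holds all 3 libraries with the most Gpx5. In libraries 4 to 6 alone the log2 fold change of Slc25a25 was 2.91. Adjusted p ranged up to 0.000890 when any 1 library was left out. Skeletal muscle also expresses this carrier. The summed CPM of 4 skeletal muscle markers was 35.1 to 70.6 with epinephrine (median 57.5) and 6.76 to 51.7 with vehicle (median 26.2). Neither of the 2 that could be tested passed, though their median log2 fold change was 1.05. The part of muscle in the Slc25a25 result was not tested. Reads could also be shared with Naif1, whose gene span overlaps that of Slc25a25, since the strand setting of the counting is not given in the sources used here. Naif1 itself had 89 to 111 counts per library with epinephrine and 85 to 139 with vehicle.

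**Figure D2:**
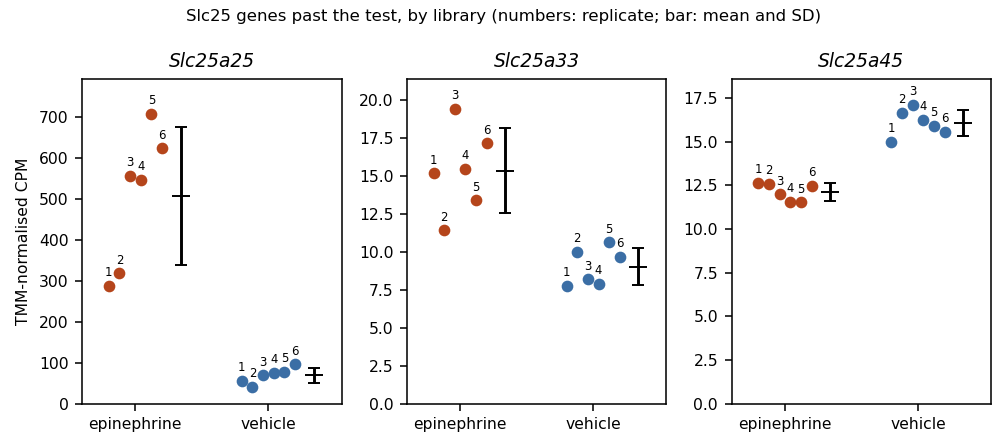
CPM of Slc25a25, Slc25a33 and Slc25a45 in each of the 6 epinephrine and 6 vehicle libraries on linear axes that start at 0, with the mean and SD beside each group. The groups do not overlap for any of the 3: Slc25a25 lies at 287 to 707 CPM with epinephrine and 40.8 to 96.0 CPM with vehicle.

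Slc25a25 is 1 of 4 ATP-Mg/phosphate carriers. Slc25a23 averaged 151 ± 28.1 CPM with epinephrine and 160 ± 25.03 CPM with vehicle (SD, n = 6 each), a log2 fold change of -0.08 (SE 0.14) with an adjusted edgeR p of 0.889. Slc25a24 averaged 31.0 ± 7.29 CPM with epinephrine and 32.6 ± 6.90 CPM with vehicle, a log2 fold change of -0.07 with an adjusted edgeR p of 0.934. Slc25a41 was below the count filter. Measured per kilobase of gene length, Slc25a25 made up 63.6 to 74.3% of the summed level of the group with epinephrine and 20.3 to 29.7% with vehicle. Slc25a25 thus made up most of the summed level in every epinephrine library. With vehicle its mean of 17.4 CPM per kilobase was below that of Slc25a23 (47.4) and above that of Slc25a24 (9.63). With listed age as a covariate, Slc25a23 passed as lower (log2 fold change -0.69, adjusted p 0.0489).

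**Figure D3:**
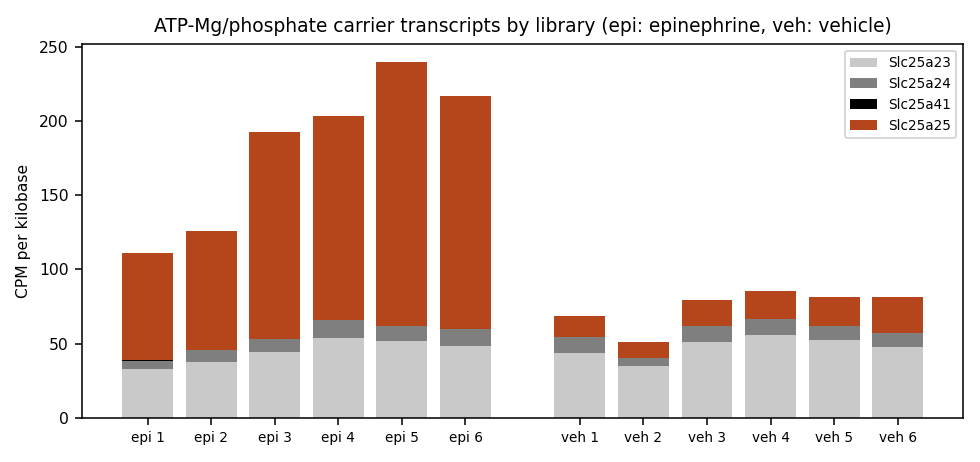
Stacked bars of the CPM per kilobase of the 4 ATP-Mg/phosphate carriers, 1 bar per library. Slc25a25 makes up 63.6 to 74.3% of the summed level in the epinephrine libraries and 20.3 to 29.7% in the vehicle libraries, while the group values of Slc25a23 and Slc25a24 overlap.

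Most of the difference in the total over the 47 genes came from Slc25a25. Their CPM summed to 3258 ± 365 with epinephrine and 2640 ± 327 with vehicle (SD, n = 6 each). Of the difference of 618 CPM, Slc25a25 made up 437 CPM, or 70.7%. Without it the sums were 2752 ± 248 CPM with epinephrine and 2570 ± 312 CPM with vehicle. Slc25a25 took 10.3 to 19.7% of the summed CPM with epinephrine and 1.81 to 3.29% with vehicle. Per kilobase it averaged 128 CPM with epinephrine, the 5th highest of the 47 genes, and 17.4 CPM with vehicle, where it was 17th.

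Catecholamines act partly through cyclic AMP and the factors that bind the cyclic AMP response element, so the RefSeq promoter windows (GRCm38.p6, 250 bases before to 50 after each start) were searched for the element TGACGTCA, for TGACG on either strand, and for TGANTCA, the AP-1 element. The windows of the 3 called genes and of Slc25a36 are printed below, with each element found in capitals. Slc25a36 is shown because it shares the full element with Slc25a25 without having passed the test. Of the 3 Slc25a25 windows, all on the minus strand, only the one that holds an element, chr2:32424017-32424316, is shown. It is the lowest of the 3 by coordinate, and so the furthest downstream on that strand. The Slc25a36 window is chr9:97110992-97111291 (minus strand), that of Slc25a33 is chr4:149774218-149774517 (minus strand) and that of Slc25a45 is chr19:5877572-5877871 (plus strand).
Slc25a25: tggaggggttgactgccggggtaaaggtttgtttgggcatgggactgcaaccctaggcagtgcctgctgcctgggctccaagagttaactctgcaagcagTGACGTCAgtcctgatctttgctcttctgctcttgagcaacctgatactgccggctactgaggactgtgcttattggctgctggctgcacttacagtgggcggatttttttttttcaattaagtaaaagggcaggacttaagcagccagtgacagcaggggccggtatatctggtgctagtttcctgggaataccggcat
Slc25a36: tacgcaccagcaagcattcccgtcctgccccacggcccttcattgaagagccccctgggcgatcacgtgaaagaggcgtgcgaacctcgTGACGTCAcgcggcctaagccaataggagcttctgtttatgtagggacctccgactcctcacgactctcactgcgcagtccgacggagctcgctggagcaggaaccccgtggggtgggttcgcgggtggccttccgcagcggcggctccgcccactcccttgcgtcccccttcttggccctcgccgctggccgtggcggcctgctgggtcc
Slc25a33: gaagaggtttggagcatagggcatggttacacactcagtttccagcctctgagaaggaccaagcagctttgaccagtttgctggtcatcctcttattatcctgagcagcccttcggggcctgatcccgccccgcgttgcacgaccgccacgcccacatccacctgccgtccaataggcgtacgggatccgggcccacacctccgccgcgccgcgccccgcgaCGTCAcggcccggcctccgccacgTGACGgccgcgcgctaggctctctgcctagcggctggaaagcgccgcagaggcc
Slc25a45: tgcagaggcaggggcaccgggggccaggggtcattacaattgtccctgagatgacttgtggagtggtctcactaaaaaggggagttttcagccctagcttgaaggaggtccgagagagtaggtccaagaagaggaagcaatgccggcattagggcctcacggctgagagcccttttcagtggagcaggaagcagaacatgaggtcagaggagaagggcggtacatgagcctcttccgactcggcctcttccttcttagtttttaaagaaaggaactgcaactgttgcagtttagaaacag
The full element lies 150 to 143 bases before the start of the printed Slc25a25 window. The other 2 windows of that gene, chr2:32431102-32431401 and chr2:32451421-32451720, hold none of the 3 elements. The last of them covers the upstream end of the gene span, at 32451470. Counts per gene do not tell which of the starts was used. In Slc25a36 it lies 161 to 154 bases before the start. The Slc25a33 window holds TGACG on each strand, at -28 to -24 and at -4 to 1. The Slc25a45 window holds none. Among 32851 windows of 27025 genes, 1.79% of windows hold the full element, 20.8% hold TGACG on either strand and 7.81% hold TGANTCA. Counted by gene, the shares are 2.03% for the full element, 23% for TGACG and 8.97% for TGANTCA. Of the 47 Slc25 genes, 36 matched a window (46 windows in all). Of these 46 windows, 2 held the full element, 13 held TGACG (12 genes) and 2 held TGANTCA, in Slc25a11 and Slc25a13. A match is a run of letters and says nothing of binding.

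Slc25a33 encodes a pyrimidine nucleotide carrier (Entrez 70556, chr4:149744036-149774267). It stood at 15.1, 11.4, 19.4, 15.5, 13.4 and 17.1 CPM with epinephrine and at 7.73, 9.98, 8.17, 7.85, 10.6 and 9.65 CPM with vehicle. The lowest epinephrine library, number 2, was only just above the highest vehicle library, number 5. The means were 15.3 ± 2.79 CPM with epinephrine and 8.999 ± 1.23 CPM with vehicle (SD, n = 6 each), a 1.70-fold rise with a log2 fold change of 0.77 (SE 0.13, 95% interval 0.47 to 1.06) and an adjusted edgeR p of 0.00583. With listed age as a covariate it was 0.52 with an adjusted edgeR p of 0.1502, and in libraries 1 to 3 alone 0.84 with an adjusted p of 0.4497. In libraries 4 to 6 alone it was 0.71 with an adjusted p of 0.0325. Slc25a36, which carries the same class of nucleotides, did not pass, at 39.7 ± 6.27 CPM with epinephrine and 40.9 ± 6.00 CPM with vehicle (log2 fold change -0.04, adjusted edgeR p of 0.938).

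Slc25a45, for which no role is assigned here, fell (Entrez 107375, chr19:5877801-5885768). It stood at 12.7, 12.6, 12.0, 11.6, 11.5 and 12.5 CPM with epinephrine and at 15.0, 16.7, 17.1, 16.3, 15.9 and 15.6 CPM with vehicle. Every epinephrine library was below every vehicle library. The means were 12.1 ± 0.512 CPM with epinephrine and 16.1 ± 0.760 CPM with vehicle (SD, n = 6 each), so that the level with epinephrine was 0.754 of that with vehicle. The log2 fold change was -0.41 (SE 0.06, 95% interval -0.53 to -0.28) with an adjusted edgeR p of 0.00157. The within-group SD of its log2 CPM was 0.0646, the smallest among the 43 tested members. In libraries 1 to 3 alone the log2 fold change was -0.38 with an adjusted p of 0.494. With listed age as a covariate it was -0.36 with an adjusted p of 0.0470.

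The most abundant carriers per kilobase did not pass the test. Over the 12 libraries the highest levels were those of the ADP/ATP carrier Slc25a4 at 201 CPM per kilobase, the phosphate carrier Slc25a3 at 194, the ADP/ATP carrier Slc25a5 at 192, the citrate carrier Slc25a1 at 156 and the glutathione carrier Slc25a39 at 88.2. Slc25a25 came next at 72.5. In CPM, Slc25a4 averaged 225 ± 30.6 with epinephrine and 221 ± 22.3 with vehicle, a log2 fold change of 0.03 with a 95% interval of -0.20 to 0.26. Slc25a5 averaged 248 ± 18.9 CPM with epinephrine and 228 ± 36.3 CPM with vehicle (log2 fold change 0.12). For Slc25a1 the means were 271 ± 70.8 CPM with epinephrine and 252 ± 89.5 CPM with vehicle (0.11). For Slc25a39 they were 153 ± 17.1 CPM with epinephrine and 142 ± 20.6 CPM with vehicle (0.11). With library size alone Slc25a4 was at -0.0783 and Slc25a20 at -0.0365, where the median of all genes was -0.11, and with upper quartile scaling Slc25a4 was at -0.0040, where that median was -0.04. The moves that turned these signs are about the size of the shift of all genes under the same scalings. RefSeq also lists a pseudogene of Slc25a5, and how the counting treated reads that match both is not given in the sources used here. The carnitine-acylcarnitine carrier Slc25a20 averaged 59.0 ± 6.89 CPM with epinephrine and 56.4 ± 9.59 CPM with vehicle, with a 95% interval of the log2 fold change of -0.20 to 0.33.

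**Figure D4:**
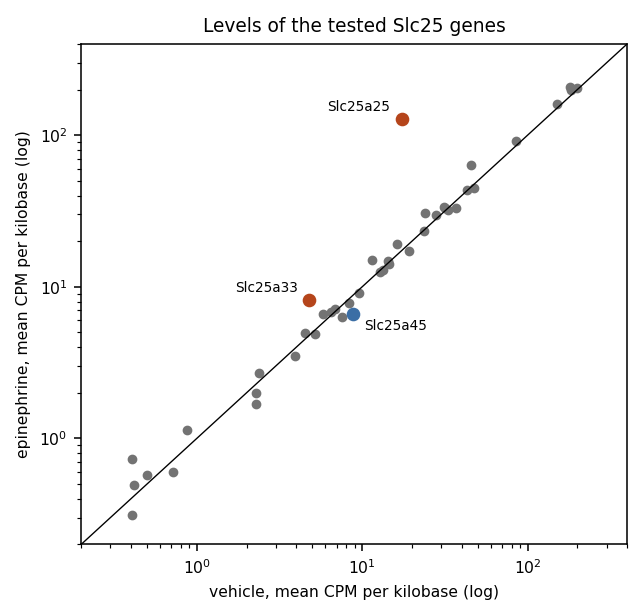
Mean CPM per kilobase of the 43 tested Slc25 genes with epinephrine (vertical) against vehicle (horizontal), on log axes, each point a gene and the line equality. Slc25a25, at 128 with epinephrine and 17.4 with vehicle, lies away from the line.

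Slc25a3 missed the threshold: it averaged 314 ± 24.6 CPM with epinephrine and 272 ± 23.8 CPM with vehicle (log2 fold change 0.21, SE 0.08, adjusted edgeR p of 0.196). It passed in 3 alternatives, with adjusted p of 0.0321 in DESeq2, 0.0223 in limma-voom with sample weights and 0.0375 with an epididymal score as covariate, while adjusted p over all alternatives ran from 0.0223 to 0.755. Slc25a10, the dicarboxylate carrier, averaged 253 ± 68.0 CPM with epinephrine and 181 ± 50.01 CPM with vehicle (0.48, SE 0.22, adjusted p 0.289). Slc25a30 averaged 25.8 ± 5.97 CPM with epinephrine and 19.6 ± 5.69 CPM with vehicle (0.40, SE 0.19, adjusted p 0.328). Vehicle library 2 was at 30.8 CPM for Slc25a30, against 14.9 to 19.1 CPM in the other 5, but epinephrine libraries 1 and 2, which also have much Gpx5, were at 34.7 and 31.3 CPM. Without vehicle library 2 alone the log2 fold change of Slc25a30 was 0.61 (adjusted edgeR p of 0.0462), and without all 3 libraries it was 0.36 (adjusted edgeR p of 0.0469). It also passed with sample-weighted limma-voom (0.41, adjusted p 0.0428) and with listed age as a covariate (1.11, adjusted p 0.0260). Its adjusted p ran from 0.0260 to 0.743 over the alternatives and from 0.0462 to 0.556 when 1 library was left out. Slc25a37, the mitoferrin that takes iron into the mitochondria of red cell precursors, averaged 26.5 ± 2.50 CPM with epinephrine and 31.4 ± 3.69 CPM with vehicle (-0.25, SE 0.09, adjusted p 0.164). Erythroid markers summed to 177 to 713 CPM with epinephrine and 283 to 863 CPM with vehicle, 1 of 5, Hbb-bs, was lower, and their part in that value was not tested. Among the most negative log2 fold changes, Slc25a27 averaged 4.52 ± 1.54 CPM with epinephrine and 6.10 ± 1.79 CPM with vehicle (-0.43, adjusted p 0.432), and Slc25a53 averaged 1.94 CPM with epinephrine and 2.35 CPM with vehicle (-0.27, adjusted p 0.584).

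By substrate, 0 of 8 tested amino acid carriers, 0 of 6 di- and tricarboxylate carriers, 0 of 4 CoA and NAD carriers, 0 of 3 S-adenosylmethionine and glutathione carriers and 0 of 2 mitoferrins passed in edgeR, where 6.23% of all genes passed, so that groups of this size would hold less than 1 call at the background share. Other edgeR fits called some of them: Slc25a13, Slc25a21, Slc25a29 and Slc25a30 as higher and Slc25a26 and Slc25a28 as lower with listed age as a covariate, Slc25a16 and Slc25a37 as lower with library size alone, and Slc25a16 and Slc25a22 as lower in libraries 4 to 6 alone. Within each group the Gpx5 share mostly fell as listed age rose. It was 1.09% in epinephrine library 1 and 0.000875% in epinephrine library 6. With vehicle it was 0.00217% in library 1, 1.99% in library 2 and 0.000375% in library 6. The part of this gradient in the calls with listed age was not tested. At an unadjusted p below 0.05 the 5 members that did not pass were Slc25a37, Slc25a16, Slc25a3, Slc25a18 and Slc25a10. Slc25a16 averaged 54.1 ± 1.84 CPM with epinephrine and 60.1 ± 5.24 CPM with vehicle (-0.15, adjusted p 0.208). Slc25a18, a glutamate carrier, averaged 1.01 ± 0.328 CPM with epinephrine and 0.556 ± 0.306 CPM with vehicle (0.86, adjusted p 0.249). Of the alternatives, only limma-voom with sample weights called Slc25a18 (log2 fold change 1.23, adjusted p 0.0204). For 23 of the 43, or 53.5%, the 95% interval of the log2 fold change lay within 0.5 of 0 (1.41-fold), against 43.1% of all genes tested. The 4 members not tested were at the edge of detection: Slc25a2 had 41 counts in all with epinephrine and 16 with vehicle, Slc25a31 had 31 with epinephrine and 36 with vehicle, Slc25a41 had 15 with epinephrine and 10 with vehicle, and Slc25a54 had 10 with epinephrine and 3 with vehicle.

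Some carriers varied widely between libraries of 1 group. The within-group SD of log2 CPM was 1.65 for Slc25a21, 1.26 for Slc25a47, 1.23 for Slc25a13 and 0.815 for Slc25a29, against a median of 0.243 over the 43 members and 0.307 over all genes tested. Slc25a13 exchanges aspartate for glutamate, Slc25a21 carries oxoadipate, and Slc25a29 carries basic amino acids. All 4 were highest in the 3 libraries with the most Gpx5. Slc25a13 stood at 21.3 and 11.6 CPM in epinephrine libraries 1 and 2 and at 23.6 CPM in vehicle library 2, against 1.89 to 7.31 CPM in the other 9. Slc25a21 stood at 7.33 and 5.56 CPM in those epinephrine libraries and at 9.22 CPM in that vehicle library, against 0.295 to 2.27 CPM elsewhere. Slc25a47 stood at 26.9 and 19.8 CPM in epinephrine 1 and 2 and at 28.6 CPM in vehicle 2, against 2.99 to 9.39 CPM elsewhere. Slc25a29 stood at 29.2 and 21.9 CPM in epinephrine 1 and 2 and at 28.6 CPM in vehicle 2, against 6.58 to 13.0 CPM elsewhere. In the opposite direction, Slc25a26, the S-adenosylmethionine carrier, stood at 10.5 and 13.0 CPM in epinephrine 1 and 2 and at 8.28 CPM in vehicle 2, and at 14.7 to 20.8 CPM in the other 9. The summed CPM of 19 epididymis and testis markers ran from 36.8 to 33132 with epinephrine and from 10.5 to 43199 with vehicle, and their part in these values was not tested.

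**Figure D5:**
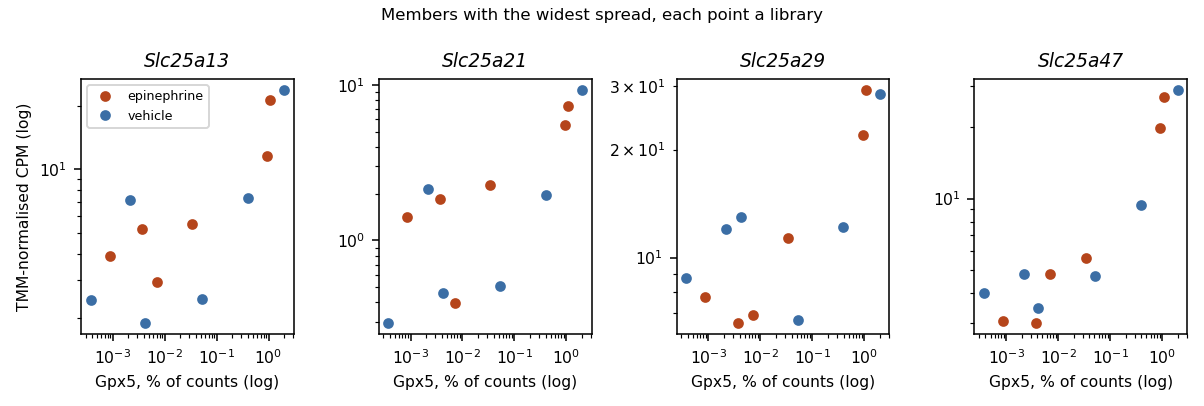
CPM of the 4 Slc25 genes with the widest within-group spread (Slc25a13, Slc25a21, Slc25a29 and Slc25a47) against the share of counts taken by Gpx5, on log axes, 1 point per library. The 3 libraries above 0.5% Gpx5, 2 of them with epinephrine and 1 with vehicle, hold the highest values of each gene.

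Other genes of transport across the mitochondrial membranes did not pass: of 37 listed (uncoupling proteins, outer membrane homologues, pyruvate carrier, sideroflexins, porins, calcium uniporter, ABC transporters and carrier import), 36 were tested in edgeR and 0 rose and 0 fell, with 1 at an unadjusted p below 0.05, against 6.23% of all genes past the adjusted threshold and 17.2% past the unadjusted. That gene was Timm29, a subunit of the carrier import complex, at 48.2 ± 4.93 CPM with epinephrine and 54.6 ± 3.91 CPM with vehicle (log2 fold change -0.18, adjusted p 0.229). Next by p were the uniporter subunit Smdt1 (0.12, adjusted p 0.327) and the import chaperone Timm10b (-0.21, adjusted p 0.334). The median log2 fold change of the 36 was 0.02, with a range of -0.39 to 0.31. Without the count filter edgeR called 1 gene, Ucp1, as higher (log2 fold change 2.99, adjusted p 0.0139). DESeq2 (3.21, adjusted p 0.0013) and limma on the deposited transformed values (adjusted p 0.00709) each called Ucp1 too. Limma-voom with sample weights called 1 gene, Timm29. Ucp1, which uncouples respiration in brown fat, was below the filter, with 38 counts in all with epinephrine and 5 with vehicle. Its groups did not overlap, at 3 to 10 counts per library with epinephrine and 0 to 2 with vehicle.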

How the data were processed

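Gene counts of 12 mouse libraries (6 epinephrine, 6 vehicle) and log2-scale variance-stabilised values were deposited by the authors. Per the submitters' processing notes, FastQC, cutadapt, HISAT2, featureCounts and DESeq2 were used with mm10, without versions. Per the labels' protocols, RNA was extracted with TRIzol and RNeasy columns and libraries were made with a SMARTER mRNA-Seq kit. Gene lengths are other values deposited by the authors beside the counts. Of the gene models in the count table, 1312 had no symbol.

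Counts of all genes were fitted with edgeR 4.0.16 in R 4.3.3 (filterByExpr at a minimum count of 10 and total of 15, TMM scaling, robust quasi-likelihood, Benjamini-Hochberg over 16175 genes, threshold 0.05). CPM were computed with TMM sizes. The common biological coefficient of variation was 0.451. DESeq2 1.42.0 and limma 3.58.1 (voom with sample quality weights, and the deposited transformed values) served as alternatives. No 2 of the 12 libraries were identical. The labels number the replicates of both groups alike, and same-numbered libraries correlated in their deviations from the group means (r 0.264 to 0.797), though only 3 of the 12 correlated best with their own number.

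Genes named were those past the threshold, those whose groups did not overlap, the 4 most positive and 4 most negative fold changes among members averaging 1 or more in log2 CPM, the 6 highest per kilobase, members called in at least 3 alternatives, and the 3 transport genes of smallest p; others were added after their values were seen. The members and lists were chosen with earlier results of these data known. Promoter windows and coordinates are from RefSeq on GRCm38.p6, matched by Entrez ID.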

Additional observations from a re-analysis of the deposited data

Results flagged for a closer look

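Among 24 named or widely varying Slc25 genes, each examined in both groups of 6 (48 groups in all), 8 groups held a library far from the other 5. A library was taken as far when its gap to the next, over the range of the group, was above 0.625 (Dixon's ratio). Chance gives about 1 such group in 20 for genes not picked by their values. Some of these genes were picked for their wide spread and the groups share libraries, so the 8 groups cannot be set against that rate. Of the 8, 7 were vehicle library 2. That library stood at 23.6 CPM for Slc25a13, where its group otherwise ran from 1.89 to 7.31 CPM, and at 9.22 CPM for Slc25a21, against 0.295 to 2.15 CPM. It stood at 28.6 CPM for Slc25a29, against 6.72 to 13.0 CPM, and at 28.6 CPM for Slc25a47, against 3.45 to 9.39 CPM. For Slc25a11, the oxoglutarate carrier, it was at 117 CPM, against 67.4 to 78.3 CPM, and for Slc25a30 at 30.8 CPM, against 14.9 to 19.1 CPM. It was low for Slc25a24, at 19.2 CPM against 32.7 to 37.8 CPM. This is the library with 1.99% of its counts in Gpx5. The remaining group was Slc25a27 with epinephrine, where library 1 stood at 7.59 CPM and the other 5 at 3.34 to 4.15 CPM.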

How the results depend on the processing

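Slc25a25 rose under 27 of 28 alternatives and Slc25a45 fell under 27. Both lost the call only in libraries 1 to 3 alone, which hold all 3 libraries of high Gpx5. Slc25a33 rose under 26. With the replicate number as a block, 2 carriers rose and 1 fell, and these were the same 3 genes, so the pairing changed no call. Leaving out 1 library at a time gave 2 to 3 rises (3 without vehicle library 2, by Slc25a30), 1 fall throughout and 0 other transport genes in either direction. The number of carriers that rose was 5 of 43 with limma-voom and sample weights together (6.34% of all genes rose), 7 with listed age as a covariate (14.5%) and 0 in libraries 1 to 3 alone (0 genes). The number that fell was 3 with library size alone (8.95% of all genes fell), 4 with listed age (9.45%), 0 in libraries 1 to 3 alone and 3 in libraries 4 to 6 alone (3.99%). Other transport genes that rose numbered 1 with no filter, in DESeq2 and with limma on transformed values, and 4 with listed age. Those that fell numbered 1 with limma-voom and sample weights, 1 without the 3 libraries of high Gpx5, 1 in libraries 4 to 6 alone and 4 with listed age. The causes were not tested.

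Log2 fold changes of genes that did not pass turned sign. With listed age they were 0.67 for Slc25a27, 0.45 for Slc25a53, -0.42 for Slc25a4, -0.0584 for Slc25a3, -0.25 for Slc25a5, -0.67 for Slc25a1, -0.20 for Slc25a39, -0.41 for Slc25a20 and 0.39 for Slc25a36. Slc25a4 was at -0.0040 with upper quartile scaling, -0.0783 with library size alone, -0.0043 in libraries 1 to 3 alone and -0.0186 to 0.0782 when 1 library was left out. In libraries 4 to 6 alone Slc25a5 was at -0.0036, Slc25a1 at -0.17, Slc25a20 at -0.0845 and Slc25a24 at 0.0882. Slc25a20 was at -0.0365 with library size alone, and Slc25a36 at 0.10 in libraries 1 to 3 alone. Leaving out 1 library gave -0.17 to 0.0283 for Slc25a24 and -0.11 to 0.0319 for Slc25a36. Library size alone moved the median of all genes to -0.11. Listed age, which may not be true age, treatment and the order of samples cannot be told apart, and counts below the filter limit 4 members.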
